A study of Mus musculus with 31 samples.

Results

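The urea cycle and ammonia handling genes of the mouse liver were followed across 4 genotype groups on 31 microarrays. The set held 8 genes (Cps1, Otc, Ass1, Asl, Arg1, Nags, Glul and Oat), taken by name, and every probe of the deposited table that carried one of these names was used. They were represented by 12 probes of the 36057 in that table: Cps1, Ass1, Arg1, Nags and Oat had 1 probe each, Otc and Asl 2 each, and Glul 3. All 12 passed the filter on dim spots.

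Hepatocytes turn the ammonia released by amino acid breakdown into urea. In the mitochondrion, Nags makes the activator of Cps1, which joins ammonia to bicarbonate, and Otc moves the product onto ornithine. In the cytosol, Ass1 and Asl add the nitrogen of aspartate and release arginine, which Arg1 splits into urea and ornithine. This pathway is strongest in hepatocytes near the portal tract. Glul, glutamine synthetase, traps the remaining ammonia in a thin ring of hepatocytes around the central vein, and Oat, which converts ornithine to glutamate semialdehyde, is also enriched there. ChREBP, encoded by Mlxipl, is a transcription factor that answers to glucose and drives glycolytic and lipogenic genes, from an α isoform and a shorter β isoform made from its own first exon.

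All mice were male C57BL6/J animals that went without food for 24 hours and were then refed over 18 hours, with water that held 20% glucose. ChREBPβ-deficient mice (n = 8), in which the β-specific exon was removed by CRISPR/Cas9, were compared with their WT littermates (n = 8), and total ChREBP-KO mice (n = 7), which are Mlxipl-null and lack both isoforms, with theirs (n = 8). Both deletions were present in every tissue, so an effect in the liver can arise outside it. The 2 lines were bred separately, and line and breeding cannot be told apart. Each array held the liver RNA of 1 mouse. Signals are given as log2 of the quantile-normalized spot intensity. They may be compared between groups for 1 probe but not between probes. In whole liver, fewer cells that express a gene and less RNA per cell cannot be told apart.

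The targeted gene was examined first. The brightest Mlxipl probe ranged from 13.89 to 14.30 in total ChREBP-KO mice and from 15.14 to 15.48 in their WT littermates, with a log2 difference of -1.16 (limma adjusted p = 8.1e-13). It ranged from 14.40 to 14.84 in ChREBPβ-deficient mice and from 14.88 to 15.33 in WT littermates, so it fell by 0.45 (adjusted p = 0.0152). For this probe the groups overlapped in neither line. Of the 2 dimmer Mlxipl probes, one was 0.59 lower in total ChREBP-KO mice (adjusted p = 0.0031) and at -0.46 did not pass in ChREBPβ-deficient mice (adjusted p = 0.91), and the other, at -0.05 and -0.06, passed in neither line (adjusted p = 0.60 and 1). The probes were not placed relative to the deleted exons here, so they check the labels only in part. The call of the brightest probe in the ChREBPβ line was lost among the arrays of each scan day, at -0.30 and -0.57 (adjusted p = 1 and 0.084), and with slide as a fixed block, at -0.52 (adjusted p = 0.30). The 7 hepatocyte markers on the array all passed the spot filter. Their summed signal says little about composition, because quantile normalization gave Alb, albumin, the same value (18.96) on every array. Of the 7, Tdo2 (0.94, adjusted p = 0.00020) and Ttr (0.17, adjusted p = 0.0110) were higher in total ChREBP-KO mice, and the other 5 did not pass. This share was close to the 29.3% of all genes called in either direction. The part of these differences in the results was not tested. Exocrine pancreas markers reached 13.98 in total-line WT mouse 2 but at most 9.97 in the ChREBPβ line. The 3 highest arrays (13.98, 12.51 and 12.39) were all total-line WT mice. Total ChREBP-KO mice reached 11.61, with a median of 10.97 against 10.47 in WT littermates. Of 3 pancreas markers tested, 2 passed in total ChREBP-KO mice, both lower, against 14.8% of all genes in that direction. Their part in that comparison was not tested. Red blood cell markers lay between 16.54 and 17.55 in the total line and between 15.50 and 16.59 in the ChREBPβ line. Correlations between arrays ran from 0.980 to 0.999.

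The 60-base oligos read 1 short stretch of each transcript. Those of Cps1, Arg1 and the mid-signal probe of Glul are shown as examples of what was measured, at their mm9 positions as the array annotation gives them and as the scanner files give them. No mm9 gene annotation was used here to place them in exons.
Cps1 probe, chr1:67276029-67276088, plus strand: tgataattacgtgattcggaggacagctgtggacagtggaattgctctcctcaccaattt
Arg1 probe, chr10:24636194-24636253, minus strand: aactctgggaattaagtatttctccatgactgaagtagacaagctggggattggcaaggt
Glul probe, chr1:155755109-155755168, plus strand: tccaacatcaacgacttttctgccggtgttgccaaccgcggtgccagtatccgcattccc

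The other probes lay at chrX:9897267-9897326 and chrX:9893244-9893303 for the brighter and dimmer Otc probes, chr2:31376068-31376127 for Ass1, chr5:130487513-130487736 (split over an intervening stretch) and chr5:130498273-130498332 for the brighter and dimmer Asl probes, chr11:102009515-102009574 for Nags, chr1:155756765-155756824 and chr1:155751765-155751824 for the brightest and dimmest Glul probes, and chr7:139749183-139749242 for Oat. The dimmer Otc probe was designed on a predicted transcript, not on the reference transcript of the brighter probe.

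ChREBP binds DNA as a heterodimer at carbohydrate response elements, pairs of E-box motifs with a short spacer. Promoter sequence from RefSeq (GRCm38.p6) was at hand for Otc, Ass1, Nags, Glul and Oat, 5 of the 8 genes. In windows of 250 bases before and 50 after the start of transcription, the E-box CACGTG, which reads the same on both strands, was found in 1 of the 5, that of Ass1, and in 7.15% of all 32851 promoters. A full element was taken as a pair of exact CACGTG motifs with 5 bases between them, on either strand. It was in 0 of the 5 and in 0 of all 32851 promoters, so this exact search cannot set the members apart. The bases before the start are shown for Nags and Oat, whose signals were higher in total ChREBP-KO mice, and for Ass1, with the E-box in capitals 36 bases before the start. A match is a description of the letters and no measure of binding.
Nags promoter, chr11:102145263-102145512, plus strand: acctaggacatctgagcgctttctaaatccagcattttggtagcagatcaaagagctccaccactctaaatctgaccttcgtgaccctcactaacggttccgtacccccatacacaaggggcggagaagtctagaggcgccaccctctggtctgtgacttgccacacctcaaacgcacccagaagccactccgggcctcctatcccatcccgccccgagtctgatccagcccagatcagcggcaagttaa
Oat promoter, chr7:132576399-132576648, minus strand: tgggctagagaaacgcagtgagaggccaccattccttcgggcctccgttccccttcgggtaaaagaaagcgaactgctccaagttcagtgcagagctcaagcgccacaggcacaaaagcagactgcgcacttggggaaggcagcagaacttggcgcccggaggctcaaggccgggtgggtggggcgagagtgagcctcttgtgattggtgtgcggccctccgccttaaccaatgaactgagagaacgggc
Ass1 promoter, chr2:31470020-31470269, plus strand: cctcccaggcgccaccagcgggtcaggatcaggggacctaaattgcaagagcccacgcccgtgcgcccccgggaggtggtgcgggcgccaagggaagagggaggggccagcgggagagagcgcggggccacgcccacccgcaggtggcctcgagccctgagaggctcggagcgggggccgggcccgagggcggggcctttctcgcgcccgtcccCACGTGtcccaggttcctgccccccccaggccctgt

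The first question was whether loss of the β isoform alone changed these genes. No member probe passed the test in ChREBPβ-deficient mice (0 of 12, limma with Benjamini-Hochberg adjustment over 36059 probes), where 0.00277% of all probes did, which was Mlxipl alone. At an unadjusted p under 0.05 the count was also 0, against 4.98% of all probes. After adjustment the exact Mann-Whitney test called 0 as well. Before adjustment the exact Mann-Whitney test gave p = 0.0148 for Ass1 and p = 0.0379 for the brightest Glul probe. It was under 0.05 for no other member probe. Differences ran from -0.29, for the dimmer Asl probe, to 0.23, for Oat, with a median of 0.05 against 0.00 over all probes.

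The groups overlapped for every member, where 0.0222% of all probes did not overlap. Cps1 signal was lowest at 13.90, 14.18 at the median and highest at 14.45 in ChREBPβ-deficient mice, and 13.87, 14.23 and 14.89 in WT littermates. The 95% interval of its difference reached from -0.31 to 0.23. For the brighter Otc probe the interval was -0.10 to 0.23, for Ass1 -0.15 to 0.41, for the brighter Asl probe -0.14 to 0.20, for Arg1 -0.15 to 0.37 and for Nags -0.15 to 0.23. Intervals reached 0.50, 0.45 and 0.58 at their upper end for the 3 Glul probes, 0.51 for Oat and 0.53 for the dimmer Asl probe.

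In total ChREBP-KO mice, 4 of 12 member probes passed the test, all higher: Cps1, Nags, Oat and the dimmer Otc probe. Over all probes 29.1% passed, 14.5% higher and 14.6% lower, so the number of member probes called was close to the background with both directions pooled. By direction, 4 of 12 member probes were called higher and 0 of 12 lower. This split, in few probes that are not independent, was not tested, and no direction of the set is read from it. The median difference of the members was 0.15, against 0.01 over all probes. Ass1, Arg1, Glul, Asl and the brighter Otc probe did not pass.

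**Figure D1:**
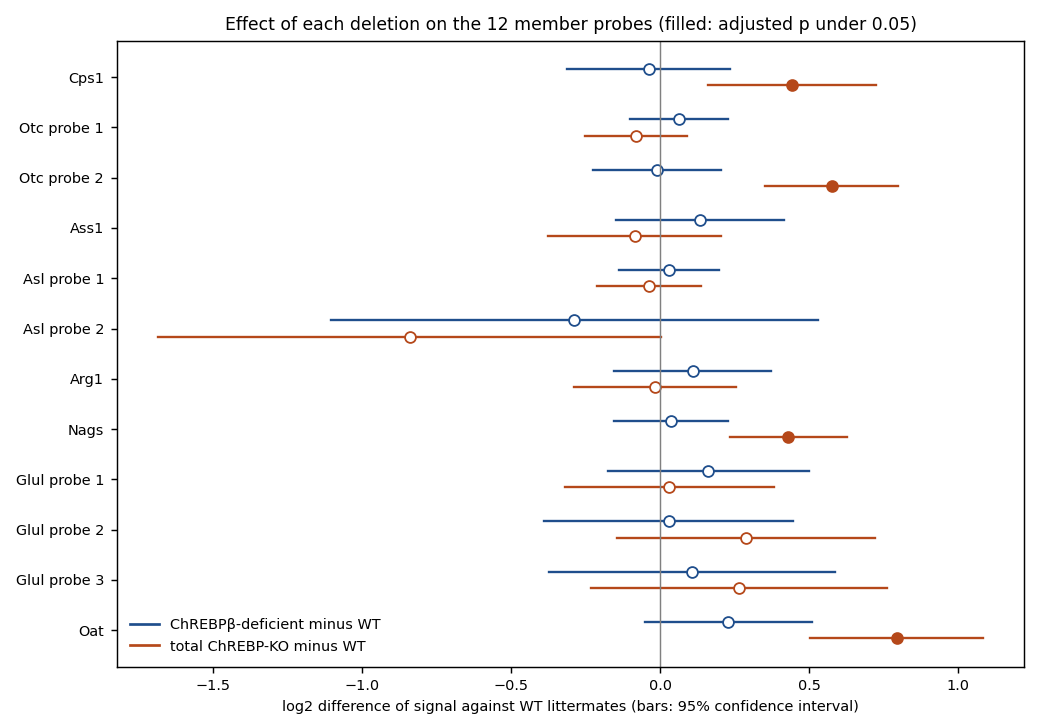
log2 difference of signal between deleted mice and WT littermates for each of the 12 member probes, with 95% confidence intervals, in the ChREBPβ line (blue) and the total line (orange). Filled points passed an adjusted p of 0.05: Cps1 (0.44), the dimmer Otc probe (0.58, probe 2), Nags (0.43) and Oat (0.79) in the total line, and none in the ChREBPβ line.

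Nags, which makes N-acetylglutamate, ranged from 10.99 to 11.57 in total ChREBP-KO mice, with a median of 11.43, and from 10.63 to 11.22 in WT littermates, with a median of 10.87. In 4 of 7 KO mice it was above every WT mouse, so the groups overlapped at their edges. Means were 11.33 ± 0.22 (SD, n = 7) in KO mice and 10.90 ± 0.22 (SD, n = 8) in WT littermates. They differed by 0.43 ± 0.10 (SE) or 1.35-fold (adjusted p = 0.00097). It was 0.43 among the arrays of each of the 2 scan days.

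Cps1, the entry step of the cycle, spread more widely. Its signal was 14.08 at the lowest, 14.55 at the median and 14.97 at the highest in KO mice, and 13.88, 14.13 and 14.45 in WT littermates. Again 4 of 7 KO mice lay above every WT mouse, while the lowest KO mouse, number 7, lay inside the WT range. The difference was 0.44 ± 0.14 (SE) or 1.36-fold (adjusted p = 0.0157), and 0.54 and 0.33 on the 2 scan days. With slide as a fixed block it was 0.28 and no longer passed (adjusted p = 0.15), and neither scan day alone passed (adjusted p = 0.11 and 0.21).

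Oat showed the largest difference among the called probes. It ranged from 14.58 to 15.48 in KO mice, with a median of 14.91, and from 13.72 to 14.65 in WT littermates, with a median of 14.24. In 5 of 7 KO mice it was above every WT mouse. The difference was 0.79 ± 0.14 (SE) or 1.73-fold (adjusted p = 7.3e-05), and 0.78 and 0.86 on the 2 scan days.

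For Otc the 2 probes parted. The brighter one, on the reference transcript, ranged from 13.48 to 14.00 in KO mice and from 13.53 to 14.10 in WT littermates, a difference of -0.08 (95% interval -0.25 to 0.09; adjusted p = 0.52). The dimmer one ranged from 7.65 to 8.63 in KO mice, with a median of 8.25, and from 7.30 to 7.75 in WT littermates, with a median of 7.59. It was 0.58 ± 0.11 (SE) higher (adjusted p = 0.00015), with 6 of 7 KO mice above every WT mouse, and 0.65 and 0.51 on the 2 scan days. Only the dimmer Otc probe was therefore higher, while the probe on the reference transcript showed no change that passed. The median of the 2 probes was 0.25 higher (adjusted p = 0.0258). It weighs the dim probe (mean 7.77) equally with the brighter one (mean 13.87), so it is no better measure of Otc.

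**Figure D2:**
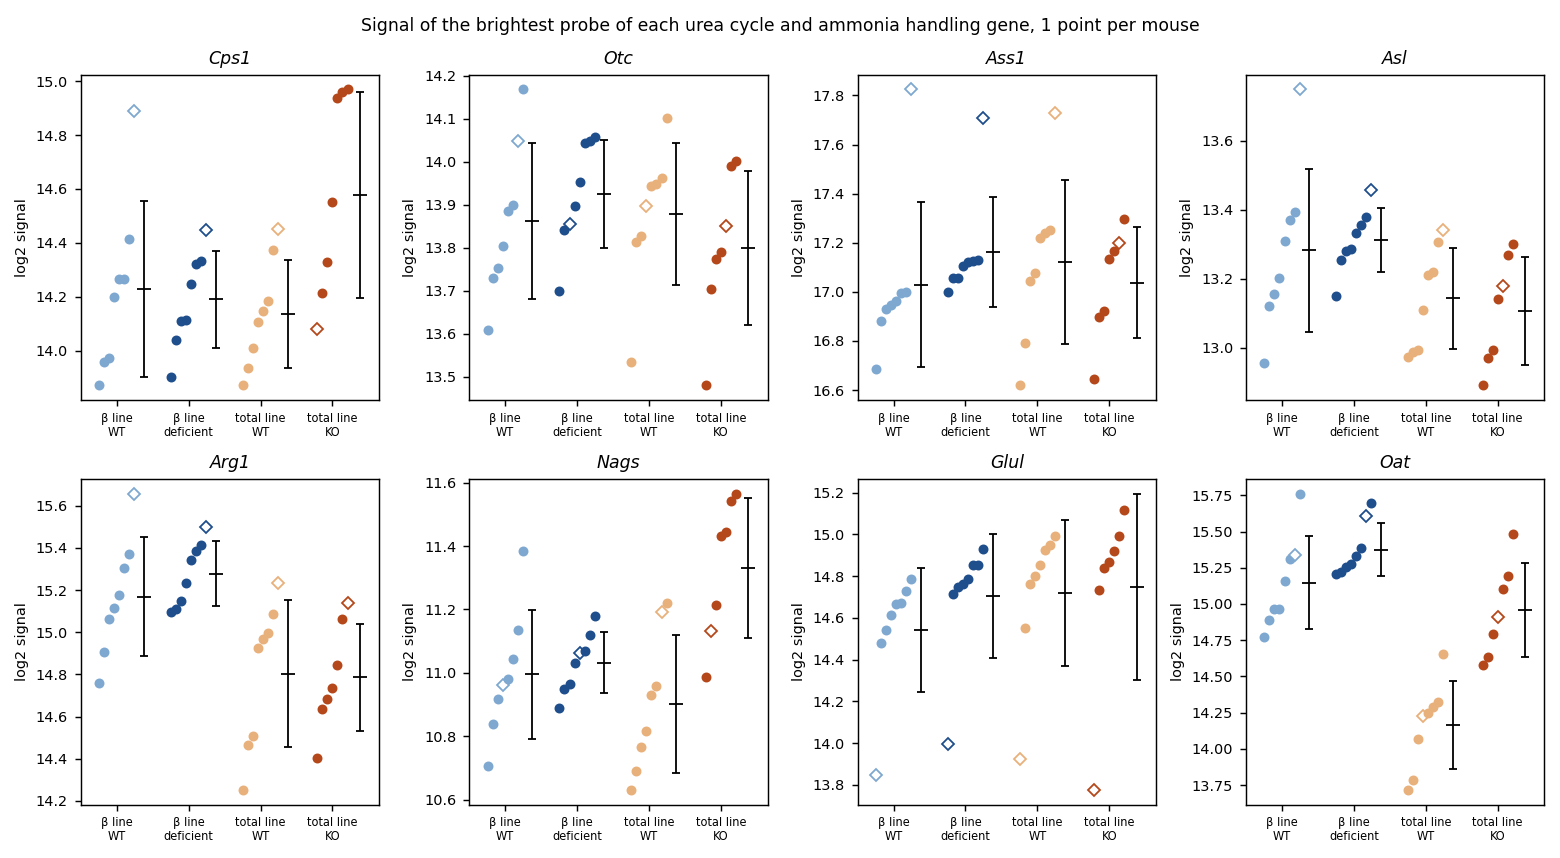
log2 signal of the brightest probe of each gene in every mouse, by group, with the mean and SD beside each group. Open diamonds mark the mouse of each group with the lowest mean of the pericentral genes: these 4 are the lowest Glul signals of their groups, at 13.78 to 14.00.

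The cytosolic steps did not pass the test. Ass1 had a mean of 17.04 ± 0.23 (SD, n = 7) in KO mice and 17.12 ± 0.33 (SD, n = 8) in WT littermates, with a 95% interval of the difference from -0.38 to 0.21. Arg1 had a mean of 14.79 ± 0.25 (SD, n = 7) in KO mice and of 14.80 ± 0.35 (SD, n = 8) in WT littermates, with an interval from -0.29 to 0.25. The brighter Asl probe was 13.11 ± 0.16 (SD, n = 7) against 13.14 ± 0.15 (SD, n = 8). Its dimmer probe, which missed the spot filter on 1 KO array, scattered from 8.58 to 11.62 in KO mice and from 9.58 to 11.86 in WT littermates, with a difference of -0.84 that did not pass (adjusted p = 0.13). Without KO mouse 8 that difference was -1.15 and passed (adjusted p = 0.0278).

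Glul was carried by 3 probes, and none passed over all mice. The brightest ranged from 13.78 to 15.12 in KO mice and from 13.92 to 14.99 in WT littermates, with a difference of 0.03 ± 0.17 (SE). The other probes were 0.29 and 0.26 higher in KO mice (adjusted p = 0.34 and 0.46). In each of the 4 groups 1 mouse stood below the rest: ChREBPβ-deficient mouse 2 at 14.00, its line's WT mouse 2 at 13.85, total ChREBP-KO mouse 7 at 13.78 and total-line WT mouse 2 at 13.92, while the other 27 mice lay between 14.48 and 15.12. Total-line WT mouse 2 was also the array highest in pancreas markers. On scan day 1, which held the low WT mouse, the 3 probes were 0.33, 0.65 and 0.63 higher in KO mice, and on scan day 2, which held the low KO mouse, they were -0.31, -0.16 and -0.15.

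These 4 mice were low in other genes of the central zone too. A list of 15 pericentral genes, Glul not among them, had its lowest mean of each group in exactly these mice, at 10.92 to 11.37, while the other 27 lay between 11.37 and 12.15. The mean of 11 periportal genes was 13.93 to 14.59 in them and 13.02 to 14.34 in the others. Ass1 was 17.20 to 17.82 in them and 16.62 to 17.30 in the others, and Arg1 15.14 to 15.66 against 14.25 to 15.42. What set these livers apart was not tested.

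Leaving out these 4 mice, a choice made after their values were seen, changed the Glul result, while the 4 calls above passed again. The mid-signal Glul probe was then 0.38 higher in total ChREBP-KO mice (adjusted p = 0.00012) and the dimmest 0.33 higher (adjusted p = 0.0293), while the brightest was 0.08 higher and did not pass (adjusted p = 0.43). The mice left out were the lowest in Glul of their groups, so leaving them out narrows the Glul spread by itself. The number of member probes called rose to 6, for which no share over all probes was taken. Cps1 was 0.57 higher (adjusted p = 0.00057), Nags 0.50 (adjusted p = 0.00045), the dimmer Otc probe 0.65 and Oat 0.81. In Cps1 the total-line mice left out were the lowest KO mouse (14.08) and the highest WT mouse (14.45). For Nags, the dimmer Otc probe and Oat the KO mouse also lay below its group mean and the WT mouse above. Leaving them out therefore widens these differences by itself, and the repeated calls are no separate check.

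**Figure D3:**
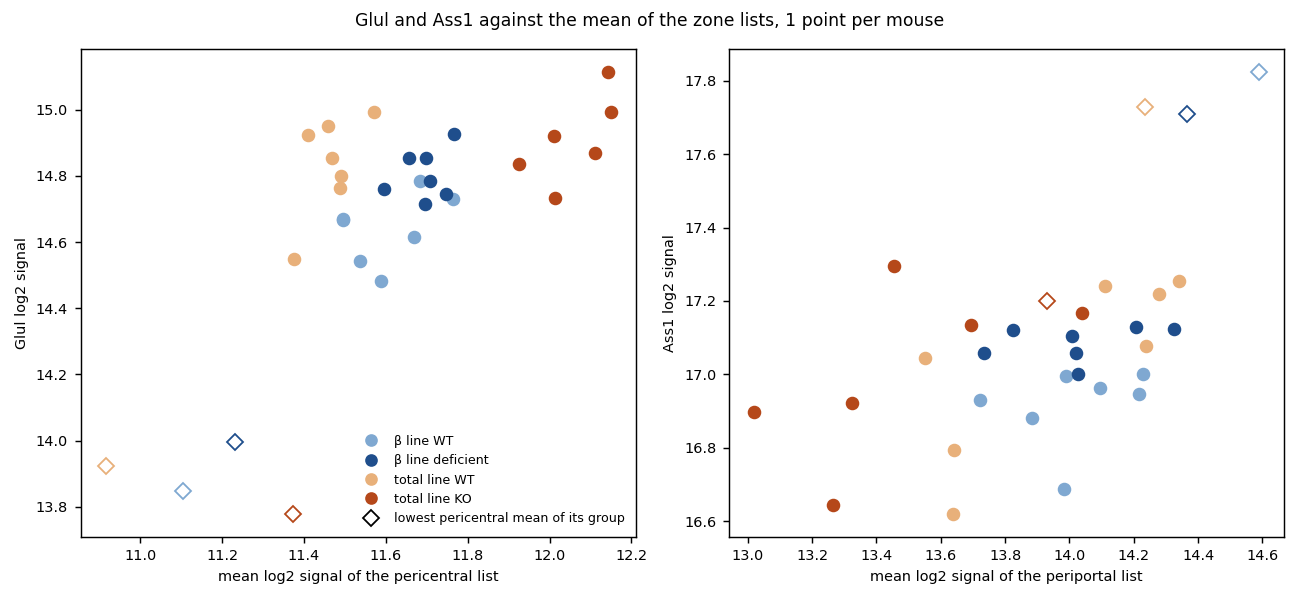
log2 signal of Glul against the mean of 15 pericentral genes (left) and of Ass1 against the mean of 11 periportal genes (right), 1 point per mouse, coloured by group. Open diamonds are the 4 mice lowest in pericentral genes: their Glul lies at or below 14.00, under all other mice, and 3 of them have the highest Ass1 signals, at 17.71 to 17.82.

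Whether the effect of total deletion differed from that of ChREBPβ deletion was tested as the difference of the 2 effects. It passed for 2 of 12 member probes, against 15.1% of all probes: the dimmer Otc probe, at 0.59 ± 0.15 (SE; adjusted p = 0.0074), and Nags, at 0.39 ± 0.13 (SE; adjusted p = 0.0437). Nags lies at the edge of the threshold and did not pass in 8 of 17 alternative settings or in 19 of 31 fits that left out 1 mouse. Oat was 0.57 ± 0.20 (SE) at an adjusted p of 0.0500028, just above the threshold, and passed in 8 of those 17 settings, with the deposited values among them (0.62, adjusted p = 0.0256), and in 11 of those 31 fits. Cps1 was 0.48 ± 0.19 (SE) and did not pass (adjusted p = 0.0915). Within the 2 scan days the difference was 0.55 and 0.57 for the dimmer Otc probe, 0.24 and 0.55 for Nags, 0.42 and 0.76 for Oat, and 0.45 and 0.44 for Cps1.

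The WT littermates of the 2 lines already differed in Oat. WT mice of the total line had 14.16 ± 0.30 (SD, n = 8) and those of the ChREBPβ line 15.15 ± 0.32 (SD, n = 8), with no overlap, which held for 1 of 12 member probes and 1.89% of all probes. The difference was -0.98 ± 0.14 (SE; adjusted p = 1.1e-05), and -1.05 and -0.92 on the 2 scan days. Over the 4 groups, Oat was highest in ChREBPβ-deficient mice at 15.37, then 15.15 in their WT littermates, 14.96 in total ChREBP-KO mice and 14.16 in total-line WT mice. The ranges of the first 3 overlapped each other, and the last group overlapped only with total ChREBP-KO mice. Arg1 was also lower in total-line WT mice, with a difference of -0.37 ± 0.13 (SE; adjusted p = 0.0482), and -0.55 and -0.18 on the 2 scan days, with 15.28 and 15.17 in the ChREBPβ line against 14.80 and 14.79 in the total line. That call was lost in 20 of 31 fits that left out 1 mouse. In all, 2 of 12 member probes passed here, against 17% of all probes. Red blood cell and pancreas markers differed between the lines in the same comparison, and their part in it was not tested.

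Within groups, several of the enzymes varied together from mouse to mouse. Over the 27 mice without the 4 low in pericentral genes, deviations from group means of Cps1 and Ass1 had r = 0.73, of Ass1 and Arg1 0.69, of Ass1 and the brighter Asl probe 0.63, of the brighter Otc probe and Arg1 0.69 and of Otc and Oat 0.64, as a description of arrays that share processing. For Cps1 and Ass1 the value over all mice was 0.87 on scan day 1 and 0.21 on scan day 2, and for Ass1 and Arg1 0.87 and 0.77. Nags followed the other members less closely, with r between -0.37 and 0.35. Over the same 27 mice, Glul went with Rhbg, an ammonium transporter (r = 0.73), and Slc1a2, a glutamate transporter (r = 0.66), both of the same perivenous cells, and had r between -0.20 and 0.30 with the remaining pericentral genes.

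The genes whose pattern over all 31 mice, taken as deviations from group means among 23960 other genes, was most like that of each member were as follows. For Arg1 they were Hal, histidine ammonia-lyase (r = 0.89), Gls2, liver glutaminase (0.87), and Slc38a4, an amino acid transporter (0.87). For Cps1 they were Hpd, an enzyme of tyrosine breakdown (0.86), Gstm7 (0.83) and Mpv17l2 (0.83). For Ass1 they were Aldh1b1 (0.88), a probe of a long noncoding RNA without a gene name (0.86) and Atp4a (0.86). For Asl they were Tie1 (0.85), Mat1a, which makes S-adenosylmethionine (0.77), and Gnmt, which uses it (0.77). For the brighter Otc probe they included Cfhr2 (0.87) and AI182371 (0.81), for Nags they were Ldah (0.80), a noncoding RNA probe (0.79) and 4732465J04Rik (0.76), and for Oat Prosc (0.74), Wdr31 (0.72) and Rnf13 (0.72). For Glul they were the unnamed transcript NAP060515-1 (0.97), Plbd1 (0.91) and Gna14 (0.87). All of these values include the 4 mice low in pericentral genes.

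Without those 4 mice the lists changed. Of the 3 genes most like each member, 2 were shared with the lists above for Otc and Nags, 1 for Cps1, Asl, Arg1 and Oat, and 0 for Ass1 and Glul. Ass1 then went most closely with Gpt, alanine aminotransferase (r = 0.84), and Cps1 with Gm8221 (0.84), ahead of Hpd (0.78). For Arg1, Gls2 came first (0.85), and Hal and Slc38a4 were no longer among the 3. Cfhr2 (0.91), Ldah (0.87) and Prosc (0.85) remained first for Otc, Nags and Oat.

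Around the cycle, 29 partner genes that bring nitrogen in or carry its intermediates were read by their brightest probe, of which Arg2 did not pass the filter. In total ChREBP-KO mice 14 of 28 passed the test, 8 higher and 6 lower, against 29.3% of all genes (14.4% higher, 14.8% lower), with a median of 0.07 against 0.01. In ChREBPβ-deficient mice 0 of 28 passed, against 0.00417% of all genes, with 6 at an unadjusted p under 0.05, against 5.06% of all genes. Counts on the 2 scan days alone were 8 and 12.

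The changed partners included several carriers of the plasma membrane. Slc1a2 was 12.49 ± 0.35 (SD, n = 7) in KO mice and 11.21 ± 0.14 (SD, n = 8) in WT littermates, 1.29 higher (adjusted p = 9.7e-09). Slc38a4, which imports neutral amino acids, was 0.83 higher (adjusted p = 2.7e-06), and in these 2 genes every KO mouse lay above every WT mouse, as for 7.4% of all probes in either direction. Aqp9, a channel for glycerol and urea, was 0.51 higher (adjusted p = 0.00021). Rhbg at 0.37, Slc7a2, the cationic amino acid transporter, at 0.35 and Slc38a2 at 0.21 did not pass.

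Among the enzymes that hand over amino groups, the cytosolic pair parted. Gpt, alanine aminotransferase, was 15.78 ± 0.16 (SD, n = 7) against 15.02 ± 0.26 (SD, n = 8), 0.76 higher (adjusted p = 1.3e-07), and Got1, cytosolic aspartate aminotransferase, was 12.44 ± 0.30 (SD, n = 7) against 13.30 ± 0.28 (SD, n = 8), with a log2 difference of -0.87 (adjusted p = 0.0014). Neither gene's groups overlapped. Asns, which makes asparagine from aspartate and glutamine, was 1.51 ± 0.50 (SE) higher (adjusted p = 0.0210), with 0.65 and 2.41 on the 2 scan days. The liver glutaminase Gls2, at -0.13, did not pass.

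In the mitochondrion, Slc25a22, a glutamate carrier, fell by 0.56 (adjusted p = 0.0020), and Sirt5, a deacylase that acts on Cps1, fell by 0.63 with no overlap (adjusted p = 1.2e-06). Aldh18a1, which opens the route from glutamate to ornithine and proline, fell by 1.16 (adjusted p = 0.00026). Its mean was 8.27 in total-line WT mice, 7.11 in KO mice, and 6.78 and 6.90 in the deficient and WT mice of the ChREBPβ line. Aldh4a1, which completes the breakdown of proline and of the Oat product, was 0.34 higher (adjusted p = 0.0021). Pycr1, at -0.21, did not pass. The other 4 called partners changed less: Odc1 at 0.29, Agmat at 0.16, the ornithine carrier Slc25a15 at -0.32 and the aspartate and glutamate carrier Slc25a12 at -0.20, named after their values were seen.

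**Figure D4:**
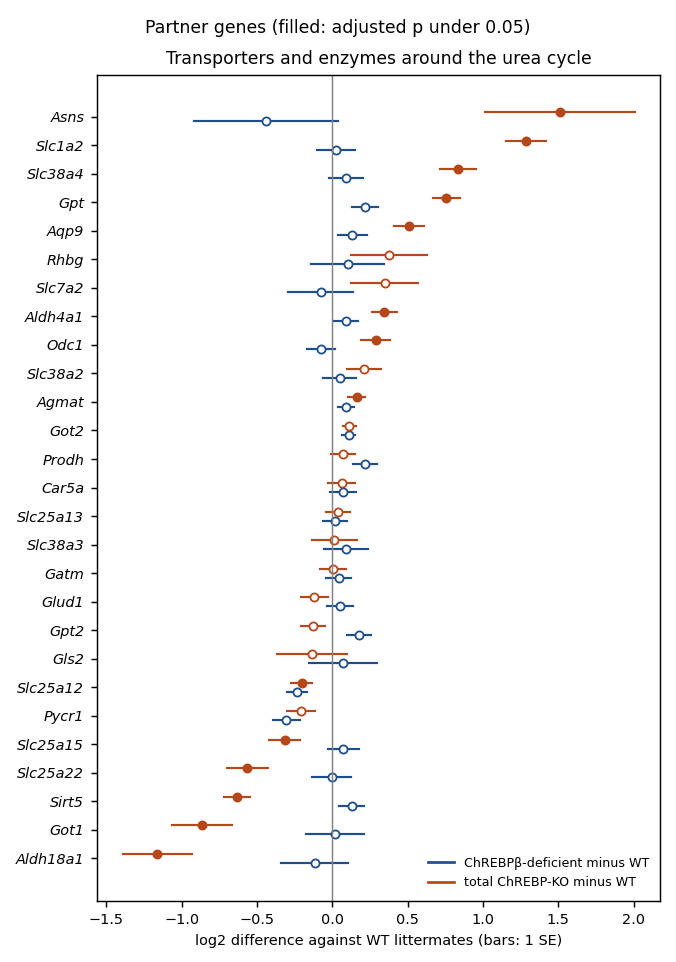
log2 difference between deleted mice and WT littermates for partner genes, with bars of 1 SE, in the ChREBPβ line (blue) and the total line (orange). Filled points passed an adjusted p of 0.05: 14 in the total line, from Aldh18a1 at -1.16 to Asns at 1.51, and none in the ChREBPβ line.

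The difference of the 2 effects passed for 7 of 28 partners, against 15.3% of all genes (7.09% higher, 8.25% lower): Slc1a2 (1.26), Slc38a4 (0.74) and Gpt (0.54) higher, and Aldh18a1 (-1.05), Got1 (-0.88), Sirt5 (-0.76) and Slc25a22 (-0.56) lower. Between the WT groups of the lines 12 of 28 passed, 3 higher and 9 lower in the total line, against 17.1% of all genes (7.79% higher, 9.36% lower). Of the partners called in total ChREBP-KO mice these held Aldh18a1 (1.37), Aldh4a1 (-0.45), Slc38a4 (-0.37), Gpt (-0.29), Agmat (-0.22) and Slc25a12 (0.20). Each of these was opposite in sign to the effect of total deletion, while Got1 (-0.72) had the same sign. The WT mice of the total line enter both comparisons with opposite sign. Opposite signs are therefore favoured by the way the comparisons are built and are no separate result. Of 9 regulators of the pathway, 3 passed in total ChREBP-KO mice, a share close to the 29.3% of all genes: Ppara, the fasting-responsive nuclear receptor, was 0.69 higher (adjusted p = 0.00081), the glucagon receptor Gcgr fell by 0.28 (adjusted p = 0.00036), and Cebpb fell by 0.46 (adjusted p = 0.0025). Foxa2 at -0.25, Cebpa at 0.18, Hnf4a at 0.16, Ppargc1a at 0.03, Foxo1 at 0.02 and Nr3c1, the glucocorticoid receptor, at 0.01 did not pass. Between the WT groups 3 of 9 regulators passed: Cebpb (0.97), Ppara (-0.69) and Ppargc1a (-0.53). For Cebpb and Ppara the sign was opposite to that of total deletion, which the shared WT mice favour in the same way.

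Since the members are divided between the zones of the lobule, the zone lists were read beside them. In total ChREBP-KO mice 9 of 15 pericentral genes passed, all higher, against 14.4% of all genes in that direction, with a median of 0.43 against 0.01. Cyp1a2 (1.504), Slc1a2 (1.29), Sp5 (0.98), Lect2 (0.79), Cyp2e1 (0.69), Lgr5 (0.66), Rgn (0.52), Gulo (0.43) and Znrf3 (0.26) were higher. They include the drug-metabolizing cytochromes Cyp1a2 and Cyp2e1. Rhbg, Axin2 (0.36), Rnf43 (0.34), Tbx3 (0.18) and Nkd1 (0.03) were among those that did not pass.

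Of 11 periportal genes 3 passed, a share close to the 29.3% of all genes called in either direction. All 3 were lower, against 14.8% of all genes in that direction, with a median of -0.13. G6pc, glucose-6-phosphatase, fell by 4.79 (adjusted p = 1.0e-08), Etnppl fell by 0.97 (adjusted p = 0.0100) and Apof fell by 0.24 (adjusted p = 0.0070). Pck1 at 0.98, Cdh1 at -0.23, Uroc1 at 0.20, Cyp2f2 at -0.20, Hsd17b13 at 0.14 and Gls2 did not pass, and neither did Hal (0.13) or Sds (-0.09), which break down histidine and serine. Without the 4 mice low in pericentral genes, 14 zone genes passed in place of 12, but these mice were picked by the same pericentral list. In ChREBPβ-deficient mice 0 of 15 pericentral and 0 of 11 periportal genes passed.

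**Figure D5:**
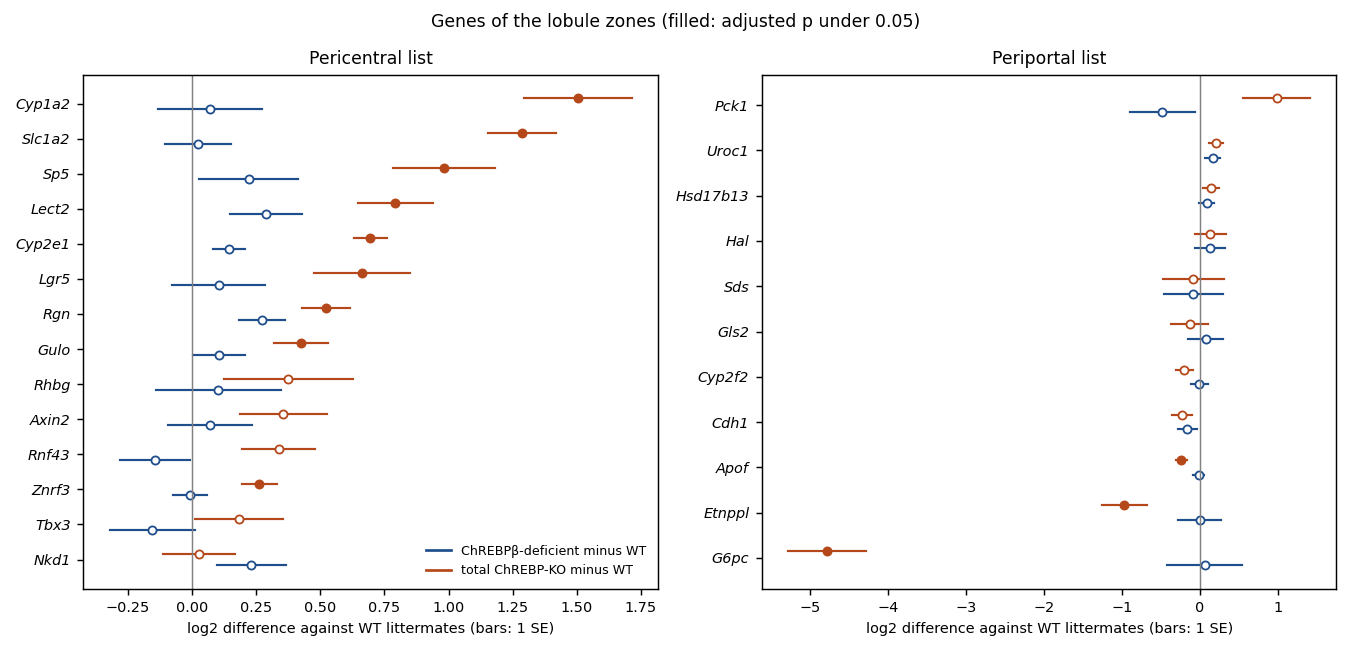
log2 difference between deleted mice and WT littermates for pericentral and periportal genes, with bars of 1 SE, in the ChREBPβ line (blue) and the total line (orange). In the total line 9 pericentral genes passed, all higher, up to 1.504 for Cyp1a2, and 3 periportal genes passed, all lower, down to -4.79 for G6pc.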

How the data were processed

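Liver RNA of 31 mice was hybridised on 1-colour Agilent mouse arrays and read with Feature Extraction 10.10.1.1. Per the labels and the methods of the study, the authors took the log2 of the median signal of each spot without background subtraction, kept spots that passed quality flags and normalized by quantiles with preprocessCore, after reading the files with limma. The deposited scanner files hold intensity values per spot, and the deposited series table holds these normalized values as log2 signals.

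Here the same steps were rebuilt from the scanner intensities: a spot was kept where it passed the flags on 26 or more arrays overall or 6 or more of 1 group, and probes printed more than once were reduced to their median, which left 36059 probes. The deposited log2 values differed from these by -0.12 to 0.05 for the members. All 4 groups entered 1 limma fit (limma 3.58.1, R 4.3.3) with contrasts for each line, the difference of the 2 effects and the 2 WT groups, Benjamini-Hochberg adjustment over all probes and a threshold of 0.05. The fit was tested on simulated data.

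Genes outside the set were read by their brightest probe. All 8 members were described by every probe, partners, regulators and zone genes by up to 10 called and 6 uncalled members of largest change, and for each member the 3 genes of highest correlation. The members and gene lists were chosen with earlier results of these data known. Summed markers are log2 of summed linear signals. The limma p-values set differences of group means against the spread between mice, estimated over all 4 groups together. Litters were not part of the fit. Total ChREBP-KO replicate 3 was not analysed here. Passing spots numbered 34131 to 38612 per array, and the number of arrays limits the precision. The scans fell on 2 days, each with all 4 groups, and on 15 slides. The alternatives tried were other signals, scalings, filters, blocks, tests and arrays left out. Promoters and motifs were read with Python from RefSeq sequences. Values of some listed or correlated genes are not reported here, and these genes are not drawn in the figures, but they are included in the counts.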

Additional observations from a re-analysis of the deposited data

Results flagged for a closer look

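In single groups, 13 of 48 tests of a mouse far from the rest of its group passed Dixon's criterion, where chance passes about 1 in 20 groups, and the tests are not independent because probes of 1 gene share a mouse. All 13 lay in the 4 mice lowest in pericentral genes. Glul was lowest on its brightest probe in ChREBPβ-deficient mouse 2 (14.00), its line's WT mouse 2 (13.85), total ChREBP-KO mouse 7 (13.78) and total-line WT mouse 2 (13.92). On the mid-signal probe the same mice had 11.94, 12.07, 11.93 and 12.08, and on the dimmest probe ChREBPβ-deficient mouse 2 had 8.76, total ChREBP-KO mouse 7 had 8.72 and total-line WT mouse 2 had 8.70. Ass1 was highest in ChREBPβ-deficient mouse 2 (17.71) and in WT mouse 2 of that line (17.82).

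The effects of the 2 deletions differed for the dimmer Otc probe, by 0.59 (limma adjusted p = 0.0074), and for Nags, by 0.39 (adjusted p = 0.0437). These were 2 of 12 member probes, a share close to the 15.1% of all probes called. The Nags call was lost in 8 of 17 alternative settings and in 19 of 31 fits that left out 1 mouse.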

How the results depend on the processing

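The 4 higher calls in total ChREBP-KO mice were made in all 31 fits that left out 1 mouse, where 4 to 5 member probes passed. No member probe passed in ChREBPβ-deficient mice under any of 20 alternatives or 31 such fits. Cps1 lost its call with slide as a fixed block (0.28, adjusted p = 0.15), on scan day 1 (0.54, adjusted p = 0.11), on scan day 2 (0.33, adjusted p = 0.21) and with the exact Mann-Whitney test. Requiring a fold of at least 1.5 left 1 member call in total ChREBP-KO mice, 1 for the difference of the effects, 1 between the WT groups and 7 partner genes. Partner calls numbered 8 on scan day 1, and zone genes called numbered 7 on scan day 2. Without 1 mouse each, partner calls ranged from 12 to 15 and zone calls from 12 to 14.

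The difference of the effects was called for 1 member probe with no filter on dim probes, with slide as a fixed block and on scan day 2, for 0 on scan day 1, and for 1 to 3 without 1 mouse each. Between the WT groups 1 probe was called with no filter, with slide as a fixed block, on either scan day, with the groups of a line fitted alone and with the Mann-Whitney test, and 1 to 2 without 1 mouse each. The following sets of arrays to leave out were chosen after seeing the data. The difference was called for 1 probe without the 3 arrays highest in pancreas markers, all total-line WT mice. It was also called for 1 without the array of lowest correlation, and for 4 without the 4 mice low in pericentral genes. The WT comparison was called for 1 probe without the 4 arrays highest in adipocyte markers and without the array of lowest correlation.

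Without total ChREBP-KO mouse 7 the mid-signal Glul probe passed (0.51, adjusted p = 0.0250), as did the difference for Cps1. The edge calls changed in many fits. The difference for Nags was lost and that for Oat passed in 8 of 17 alternatives each, and in single-mouse fits the values were: Nags in the difference (0.34 to 0.45, lost in 19), Oat in the difference (0.48 to 0.64, passing in 11) and Arg1 between the WT groups (-0.43 to -0.29, lost in 20). The fall of Mlxipl in the ChREBPβ line (-0.49 to -0.42 without 1 mouse) lost its call without ChREBPβ-deficient mouse 5 or 6 or WT mouse 6 or 7. It was also lost with slide as a fixed block (-0.52), on scan day 1 (-0.30) and 2 (-0.57), with the replicate block (-0.45, adjusted p = 0.0746), with the groups of a line alone (-0.45), with the Mann-Whitney test (-0.42) and without the 4 arrays highest in adipocyte markers (-0.43). The causes were not tested.

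Same-numbered mice did not all deviate together (r from -0.16 to 0.53 in the ChREBPβ line and from -0.21 to 0.24 in the total line, with 4 of 8 and 1 of 7 correlating best with their own number). In the ChREBPβ line this hints at some sharing, but the labels do not say what a number marks and not every pair correlated, so the main comparison was kept without the block. With the replicate block, 0, 4, 3 and 2 member probes were called in the 4 comparisons, 14 partner genes and 13 zone genes, and the difference for Cps1 passed (0.46, adjusted p = 0.0487).

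Signs turned only for values that had not passed. In ChREBPβ-deficient mice the dimmer Otc probe was 3e-04 and 0.0034 under the 75th percentile scalings of processed and median signal, 0.10 on scan day 1 and 0.012 without the adipocyte arrays. Cps1 was 0.0902 on scan day 1 and 0.019 without the mice low in pericentral genes, the brighter Asl probe -0.0044 on scan day 1 and -0.13 by the median of its probes, the mid-signal Glul probe -0.030 on scan day 1 and Nags -0.12 on scan day 2. In total ChREBP-KO mice Arg1 was 0.0039 in the deposited values, 0.028 on scan day 1, 0.16 without the pancreas arrays and 0.015 without the adipocyte arrays. Without the pancreas arrays Ass1 was 0.0817, the brighter Asl probe 0.051 and the brightest Glul probe -0.10. On scan day 2 the Glul probes were -0.31, -0.16 and -0.15. Over all arrays the median of the Otc probes was 0.25, which passed (adjusted p = 0.0258). For the difference, the brightest Glul probe was 0.23 on scan day 1 and 0.26 by the median of its probes, the other Glul probes -0.20 and -0.19 on scan day 2, Otc 0.22 by the median of its probes, and the brighter Asl probe 0.021 and Arg1 0.054 without the pancreas arrays. Between the WT groups the brighter Otc probe was -7e-04 and -0.0064 under the 75th percentile scalings, -0.072 on scan day 1, -0.0934 by the median of its probes and -0.014 without the pancreas arrays. Ass1 was -0.11 on scan day 1 and -0.0734 without the pancreas arrays, the Asl probes -0.15 (dimmer, scan day 1) and 0.25 (median of the probes), and Nags 0.013 on scan day 1.

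Leaving out 1 mouse gave ranges that crossed 0 for Cps1 (-0.0897 to 0.0555), the dimmer Otc probe (-0.0503 to 0.0302), the brighter Asl probe (-0.017 to 0.10), Nags (-0.0052 to 0.0918) and the mid-signal and dimmest Glul probes (-0.0802 to 0.16 and -0.022 to 0.24) in the ChREBPβ line. They also crossed 0 for Ass1 (-0.16 to 0.0013), Arg1 (-0.10 to 0.046) and the brightest Glul probe (-0.084 to 0.19) in the total line, for the brightest and dimmest Glul probes in the difference (-0.25 to 0.030 and -0.0028 to 0.39), and for Cps1 (-0.14 to 5e-04) and the brighter Otc probe (-0.020 to 0.0657) between the WT groups. The dimmer Otc and Asl probes and the dimmest Glul probe lie nearest to background, and the last passed the spot filter on 25 of 31 arrays.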
